A study of Caenorhabditis elegans with 8 samples.

Results

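Repair was examined in 10 protein-coding genes that mark the intestine of C. elegans or build its brush border: elt-2, elt-7, ges-1, ifb-2, ifc-2, act-5, erm-1, pept-1, cpr-6 and asp-1. They were picked by name for what they are known to do, with earlier results of these data known, out of 46890 genes of the Ensembl annotation of WBcel235, of which 19973 are protein-coding. The measurement was XR-seq, which sequences the short single-stranded pieces of DNA released by nucleotide excision repair; here those carrying cyclobutane pyrimidine dimers (CPDs) were pulled down with an anti-CPD antibody. A read thus shows where, and on which strand, a CPD was excised. The strand that RNA polymerase II reads is called the transcribed strand (TS) and the other the non-transcribed strand (NTS). The libraries fall into 4 groups of 2 replicates, all of whole worms grown on E. coli OP50. WT larvae (strain N2 ancestral) and csb-1 larvae (strain RB1801) were in the L1 stage and were collected 1 h after UVB. These L1 larvae had been arrested without food and then fed before irradiation. The xpc-1 worms (strain TG2226) were a population of mixed stages, also collected 1 h after UVB, so that genotype and stage cannot be told apart in them. WT L1 larvae without UV (WT no UV) served as the background. WT worms have both global repair and transcription-coupled repair (TCR), TCR is missing in csb-1 worms, and global repair is missing in xpc-1 worms.

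The worm intestine is a tube of large polarised cells that digests food, takes up nutrients and stores fat and yolk. Its genes are switched on by GATA factors, of which ELT-2 is the main one after the cells have formed, with ELT-7 acting beside it. On the side of the lumen each cell carries microvilli filled with actin, anchored in a terminal web that is underlain by a dense sheath of intermediate filaments. In TCR, RNA polymerase II stalled at a lesion recruits the repair machinery through CSB, so that lesions in the TS of an active gene are removed faster, whereas global repair, which depends on XPC, acts on both strands.

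GATA factors bind the sequence TGATAA, and the promoters of elt-2 and pept-1, with 2 and 3 copies of it, are shown as examples. Those of act-5 and cpr-6 also held 2 each. A promoter was taken as the 250 bases before and 50 bases after the annotated start of the gene, 300 bases in all, read from the WBcel235 genome 5′ to 3′ on the strand of the gene. The motif, searched as TGATAA and as its reverse complement TTATCA, is in capitals. It was found in the promoters of 7 of the 10 genes and in 30.2% of the 19973 promoters of protein-coding genes. Both copies in elt-2 and all 3 copies in pept-1 lay on the strand of the gene. The copies at 18 bp in elt-2 and at 20 bp in pept-1 lay after the annotated start. No copy was in this window of ges-1, erm-1 or asp-1. A match in these letters is a description and not evidence of binding.
elt-2 promoter chrX:10480990-10481289 plus strand: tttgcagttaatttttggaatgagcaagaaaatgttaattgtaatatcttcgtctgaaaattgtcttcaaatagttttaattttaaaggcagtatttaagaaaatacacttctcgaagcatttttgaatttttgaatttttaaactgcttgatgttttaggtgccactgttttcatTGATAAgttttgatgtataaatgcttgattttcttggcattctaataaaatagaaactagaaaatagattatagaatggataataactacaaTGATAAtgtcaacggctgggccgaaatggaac
pept-1 promoter chrX:6456622-6456921 plus strand: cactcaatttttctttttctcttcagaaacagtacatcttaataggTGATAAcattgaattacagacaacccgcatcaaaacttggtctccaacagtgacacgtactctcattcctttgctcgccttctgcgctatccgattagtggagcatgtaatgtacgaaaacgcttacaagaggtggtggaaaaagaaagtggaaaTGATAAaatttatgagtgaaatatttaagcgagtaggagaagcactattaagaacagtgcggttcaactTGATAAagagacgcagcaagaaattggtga

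Excised oligonucleotides are what XR-seq reads. The 24-nt window of the TS with the most reads over the 6 irradiated libraries was taken for each gene but erm-1. It is shown where it held TT at the site of repair. In these reads the damaged TT is read 6 nt from the 3′ end, and it is in capitals. Each sequence is given 5′ to 3′ on the TS, with its WBcel235 position.
elt-2 chrX:10482141-10482164 minus strand: cgaactttaacttacgTTtgaccc
elt-7 chrV:4772737-4772760 minus strand: gaactaatgatgtataTTtaacta
ges-1 chrV:1431698-1431721 plus strand: tgactagccgaaccgaTTtcatat
ifb-2 chrII:5753065-5753088 minus strand: tacactctgaaaggtaTTacatat
pept-1 chrX:6457601-6457624 minus strand: ttcccacgcggcaagaTTagttat
cpr-6 chrX:6607610-6607633 minus strand: acccatcaatccccatTTcgcctt
asp-1 chrV:19049941-19049964 plus strand: ttggtctcagagtaggTTccgact

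Between 9 and 19 distinct reads ended at the 3′ end of these windows in the 6 irradiated libraries together. Each distinct read counts once, so these counts do not give how often a site was excised. The windows of ifc-2 and act-5, not shown, held more reads, 22 and 20, but no TT at this site. Among the windows shown, that of ges-1 held the most, with 19 reads. Of these 5 came from each csb-1 library, 5 from WT replicate 1 and 4 from xpc-1 replicate 1. The windows of ges-1, cpr-6 and asp-1 lay in exons and those of elt-2, elt-7, ifb-2 and pept-1 in introns. Over all TS reads of the 10 genes, TT stood at this position in 49.8% and 47.7% of reads in the WT replicates, 48.0% in both csb-1 replicates and 43.9% and 36.4% in xpc-1. Of all dinucleotides in the genome 13.5% are TT, and every irradiated library lay above that, with the xpc-1 replicate 2 value resting on 55 TS reads.

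Reads were used where their mapping quality exceeded 20 and they lay on any of the 6 nuclear chromosomes. Each distinct read was counted once, in the gene that held its midpoint. Distinct reads can share a position. WT replicate 2 held 3252700 kept reads at 2862920 positions, and WT replicate 1 held 8198054 at 7971992. Irradiated L1 libraries held 3252700 to 13203914 kept reads, xpc-1 replicate 1 held 4762651 and replicate 2 held 143716. The WT no UV libraries held 10260 and 12916, of which 2 and 8 fell in the 10 genes. 5 of the 10 genes, elt-2, elt-7, ges-1, act-5 and cpr-6, had no read in either, where a count of 0 allows up to 3 reads, and no gene had more than 4. As a check of stage, the 10 germline genes listed had a median TS level of 27.3 RPKM (reads scaled to the length of the gene and to the kept reads of the library) in xpc-1 replicate 1 and 11.9 RPKM in replicate 2 against 3.47 to 4.41 RPKM in the L1 libraries. The listed genes of neurons and of body wall muscle had medians of 10.6 and 10.4 RPKM in xpc-1 replicate 1. In xpc-1 replicate 2 these were 20.4 and 11.9 RPKM. The germline value of replicate 2, on 54 TS reads, was thus not set apart from other lists and does not show stage. In whole worms, fewer cells of a type and less transcription in each cell cannot be told apart. The labels do not say that replicates came from separate cultures, so p-values measure the spread between these libraries.

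Repair of the 10 genes was biased to the TS in xpc-1, lay just above the TT content of the TS in WT and lay below it in csb-1. Pooled over the genes, TS reads made up 54.8% (95% interval 53.3 to 56.4) and 51.2% (48.6 to 53.9) of reads in the WT replicates. In csb-1 they made up 48.2% (46.4 to 49.9) and 47.3% (46.0 to 48.5), and in xpc-1 88.2% (86.5 to 89.7) and 85.9% (75 to 93.4). The TS of the 10 genes holds 49.9% of their TT dinucleotides, the main sites of CPDs. This share lay inside the intervals of WT replicate 2 and csb-1 replicate 1. Over the 13710 protein-coding genes that overlap no gene on the other strand, the TS share was 56.2% and 57.5% in the WT replicates. For csb-1 it was 49.7% and 49.8%, and for xpc-1 87.3% and 86.8%. The TS of these genes holds 50.3% of their TT, so csb-1 lay below the TT content there as well. Intervals are exact Clopper-Pearson intervals that cover counting error only. Over all 19973 protein-coding genes, overlapped or not, the TS share was 55.0% in WT replicate 1, inside the counting interval of the 10 genes, and 56.2% in replicate 2, above it. The pool leans on ifc-2, which gave 1308 of the 4024 reads in WT replicate 1. By gene, the median TS share of the 10 was 58.6% and 53.3% in the WT replicates, and over protein-coding genes with at least 10 reads and no opposite overlap it was 54.1% and 55.3%, so the 10 genes lay to no one side of the rest in WT.

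**Figure D1:**
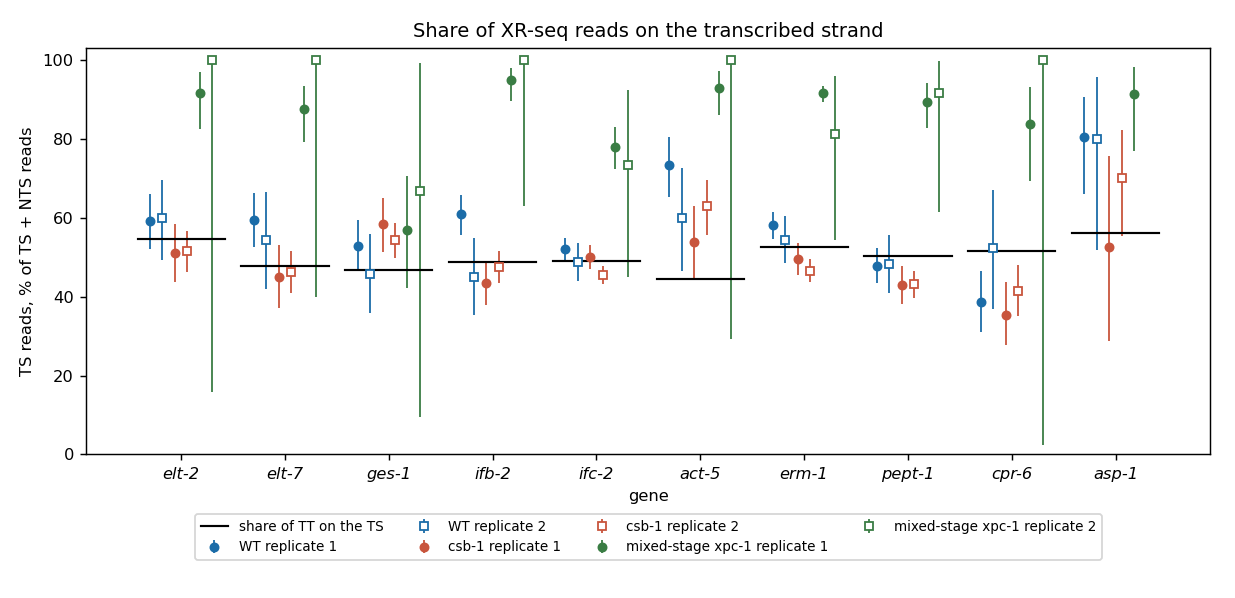
Share of TS reads among TS and NTS reads of each gene (y axis, %) in the 6 irradiated libraries, with exact 95% counting intervals, and the share of TT on the TS as a black line. In xpc-1 replicate 1 (filled green circles), 9 genes lie between 78.0% and 94.8% and ges-1 at 56.9%; asp-1 had no read in xpc-1 replicate 2.

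The GATA factor genes elt-2 and elt-7 were repaired on both strands in L1 larvae, with a higher TS share in WT than in csb-1 in every library, and mostly on the TS in xpc-1. elt-2 (chrX:10481240-10483441, plus strand) gave 123 TS and 85 NTS reads in WT replicate 1 and 58 and 39 in replicate 2, which are TS shares of 59.1% and 59.8%. In csb-1 it gave 97 and 93, then 193 and 182, with shares of 51.1% and 51.5%. In xpc-1 it gave 65 and 6 in replicate 1, a share of 91.5%, and 2 and 0 in replicate 2. The shares of WT and csb-1 did not overlap for elt-2. Its TS to NTS ratio was 0.48 higher on the log2 scale in WT than in csb-1 (SE 0.22), with an adjusted p of 0.189 by limma. elt-7 (chrV:4770670-4773086, plus strand) gave 126 TS and 86 NTS reads in WT replicate 1 and 37 and 31 in replicate 2, shares of 59.4% and 54.4%. The csb-1 libraries held 72 and 88, then 161 and 188, with shares of 45.0% and 46.1%. The xpc-1 libraries held 84 and 12 in replicate 1, a share of 87.5%, and 4 and 0 in replicate 2. Again both WT shares lay above both csb-1 shares, and the difference of 0.66 (SE 0.23) had an adjusted p of 0.0835 by limma. Against csb-1, the ratio in xpc-1 was 3.19 higher for elt-2 (SE 0.51, adjusted p = 3.105e-06, limma) and 3.02 higher for elt-7 (SE 0.41, adjusted p = 1.439e-07, limma).

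ges-1, which encodes the gut esterase long used as a marker of the intestine, alone of the 10 genes was not called above csb-1 in xpc-1. It lies at chrV:1427653-1432137 on the minus strand. It gave 128 TS and 114 NTS reads in WT replicate 1 and 47 and 56 in replicate 2, shares of 52.9% and 45.6%. In csb-1 it gave 123 and 88, then 262 and 221, shares of 58.3% and 54.2%. In xpc-1 it gave 29 and 22 in replicate 1, a share of 56.9% (42.2 to 70.7), and 2 and 1 in replicate 2. The TS of ges-1 holds 46.7% of its TT. Both csb-1 shares lay above both WT shares, the reverse of elt-2 and elt-7. The WT minus csb-1 difference was -0.40 (SE 0.22, adjusted p = 0.286, limma), and it was -0.61 without WT replicate 1 (adjusted p = 0.0134, limma), where WT is a single library and the spread comes from csb-1 alone. The ratio in xpc-1 was 0.082 higher than in csb-1 (SE 0.38, adjusted p = 0.875, limma). The TS level of ges-1 in xpc-1 replicate 1 was 1.36 RPKM, the lowest of the 10, where the median of 13710 protein-coding genes was 2.97 RPKM. Mapping moved with this result: another 25 reads of ges-1 in that library, 8 TS and 17 NTS, had a mapping quality of 20 or less. They were 32.9% of its reads there against 7.86% to 9.65% in the L1 libraries, and 9.35% of its 24-nt windows occur more than once in the genome. With reads of any mapping quality the xpc-1 minus csb-1 difference was -0.27, and the part of mapping in the result was not tested beyond this.

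The intermediate filament genes of the terminal web differed from each other in how their TS reads were spread. ifb-2 (chrII:5750188-5754140, plus strand) encodes a filament protein of the intestinal sheath. It gave 225 TS and 145 NTS reads in WT replicate 1, a share of 60.8%, but 48 and 59 in replicate 2, a share of 44.9%. The csb-1 libraries held 136 and 178, then 289 and 320, with shares of 43.3% and 47.5%. The xpc-1 libraries held 127 and 7 in replicate 1, a share of 94.8%, the highest of the 10 genes in that library, and 8 and 0 in replicate 2. The WT replicates lay on both sides of csb-1 replicate 2, so the groups overlapped. The WT minus csb-1 difference of 0.44 (SE 0.25) had an adjusted p of 0.324 by limma, and it was -0.028 without WT replicate 1 and 0.90 without WT replicate 2. The ratio in xpc-1 was 4.33 higher than in csb-1 (SE 0.55, adjusted p = 4.474e-08, limma). ifc-2 (chrX:642156-654904, minus strand), another filament gene of the same sheath, is the longest of the 10 and overlaps noncoding RNA genes on both strands. It gave 680 TS and 628 NTS reads in WT replicate 1 and 217 and 228 in replicate 2, shares of 52.0% and 48.8%. In csb-1 it gave 538 and 538, then 848 and 1016, shares of 50% and 45.5%. In xpc-1 it gave 198 and 56 in replicate 1 and 11 and 4 in replicate 2, shares of 78.0% and 73.3%. WT and csb-1 overlapped, with a difference of 0.15 (SE 0.12, adjusted p = 0.508, limma), and the ratio in xpc-1 was 1.91 higher than in csb-1 (SE 0.24, adjusted p = 3.793e-08, limma).

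The genes of the microvillar core and its link to the membrane carried the highest TS levels in xpc-1. act-5 (chrIII:13604412-13606066, minus strand) encodes the actin of the microvilli. It gave 102 TS and 37 NTS reads in WT replicate 1 and 36 and 24 in replicate 2, shares of 73.4% and 60%. The csb-1 libraries held 64 and 55, then 125 and 74, shares of 53.8% and 62.8%. The xpc-1 libraries held 92 and 7 in replicate 1, a share of 92.9%, and 3 and 0 in replicate 2. The lower WT share lay between the csb-1 shares, and the difference of 0.53 (SE 0.34) had an adjusted p of 0.390 by limma. The TS of act-5 holds only 44.4% of its TT, and set against that its ratio was 1.34 above 0 in WT (SE 0.24, adjusted p = 6.093e-04, limma) and 0.81 above 0 in csb-1 (SE 0.24, adjusted p = 0.0581, limma). erm-1 (chrI:5284026-5291604, minus strand) encodes the ezrin-like protein that ties actin to the apical membrane. It gave 479 TS and 346 NTS reads in WT replicate 1 and 153 and 128 in replicate 2, shares of 58.1% and 54.4%. In csb-1 it gave 304 and 311, then 534 and 612, shares of 49.4% and 46.6%. In xpc-1 it gave 694 and 64 in replicate 1 and 13 and 3 in replicate 2, shares of 91.6% and 81.3%. The 3 genotypes did not overlap for erm-1. Its TS level in xpc-1 replicate 1 was 19.2 RPKM and that of act-5 11.7 RPKM, ahead of 7.30 RPKM for elt-7, the next. Of 13710 protein-coding genes, 79.4% lay below erm-1 and 72.4% below act-5 in that library. In xpc-1 replicate 2, pept-1 (15.6 RPKM) and ifb-2 (14.1 RPKM) lay above act-5 (12.6 RPKM) and erm-1 (11.9 RPKM). Counts in replicate 2 were too few to order these levels.

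**Figure D2:**
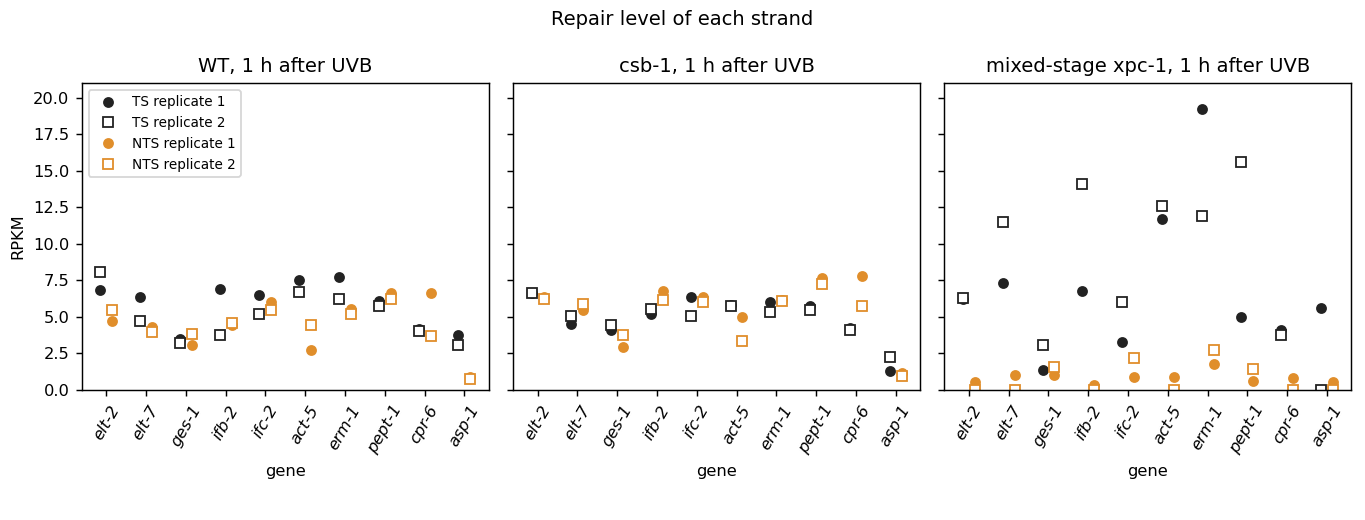
TS and NTS levels in RPKM (y axis) of each gene, 1 panel per group, with replicate 1 as filled circles and replicate 2 as open squares. In xpc-1 the NTS level of every gene lies below 3 RPKM, while the TS levels in replicate 1 run from 1.36 RPKM in ges-1 to 19.2 RPKM in erm-1; xpc-1 replicate 2 rests on at most 13 TS reads per gene.

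The digestive genes comprised a transporter and a pair of proteases. pept-1 (chrX:6456872-6461767, plus strand) encodes the proton-coupled transporter that takes up peptides from the lumen. It gave 244 TS and 267 NTS reads in WT replicate 1 and 92 and 99 in replicate 2, shares of 47.7% and 48.2%. The csb-1 libraries held 186 and 248, then 355 and 469, shares of 42.9% and 43.1%. The xpc-1 libraries held 117 and 14 in replicate 1 and 11 and 1 in replicate 2, shares of 89.3% and 91.7%. WT lay above csb-1 in each pair of libraries but below the 50.3% of TT that its TS holds, and the difference of 0.29 (SE 0.15) had an adjusted p of 0.260 by limma. cpr-6 (chrX:6607207-6609045, plus strand) encodes a cathepsin B-like cysteine protease. It gave 63 TS and 100 NTS reads in WT replicate 1 and 24 and 22 in replicate 2, shares of 38.7% and 52.2%. In csb-1 it gave 52 and 95, then 99 and 140, shares of 35.4% and 41.4%. In xpc-1 it gave 36 and 7 in replicate 1, a share of 83.7%, and 1 and 0 in replicate 2. WT and csb-1 overlapped (difference 0.41, SE 0.31, adjusted p = 0.474, limma). asp-1 (chrV:19049562-19050752, minus strand), an aspartyl protease gene without introns, gave 37 TS and 9 NTS reads in WT replicate 1 and 12 and 3 in replicate 2, shares of 80.4% and 80.0%. The csb-1 libraries held 10 and 9, then 35 and 15, shares of 52.6% and 70.0%. The xpc-1 libraries held 32 and 3 in replicate 1, a share of 91.4%, and none in replicate 2. Its WT minus csb-1 difference of 1.24 (SE 0.60, adjusted p = 0.226, limma) was the largest of the 10, on the fewest reads.

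Between WT and csb-1, which share stage, time and treatment, the strand ratio of erm-1 alone passed the threshold. The ratio was log2((TS + 0.5)/(NTS + 0.5)), tested with limma across 23836 genes of every annotated type, overlapped or not. The threshold was 0.05 on the p adjusted by the Benjamini-Hochberg method, and all 10 genes entered the test. For erm-1 the difference was 0.48 (SE 0.14, adjusted p = 0.0318, limma), higher in both WT libraries. Thus 1 of the 10 was called higher and 0 lower, where 13.3% of all genes tested were called higher and 0.344% lower. Without a csb-1 library, the other then assumed to vary like WT, erm-1 was no longer called (adjusted p = 0.153 without replicate 1 and 0.360 without replicate 2, limma). Of the 10 differences 9 were above 0 and 3 had an unadjusted p under 0.05. Their median was 0.46 against 0.21 over all genes tested, of which 67.9% were above 0. At an unadjusted p under 0.05 by limma, 5408 of all genes tested were higher and 449 lower.

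Neither strand alone gave a call among the 10 genes. For the TS level, limma called 0 of 10 (3 at an unadjusted p under 0.05), where it called 12.9% of all genes higher in WT and 2.64% lower. At an unadjusted p under 0.05 by limma, 4423 of the 23836 genes tested were higher and 2182 lower. The TS level of asp-1 was 1.02 higher in WT on the log2 scale (SE 0.37, adjusted p = 0.0741, limma), at 3.79 and 3.10 RPKM in WT and 1.27 and 2.23 RPKM in csb-1. That of ges-1 was lower in both WT libraries, at 3.48 and 3.22 RPKM against 4.14 and 4.42 RPKM in csb-1, a difference of -0.35 (SE 0.16, adjusted p = 0.160, limma). For the NTS level limma called 0 of 10 (2 at an unadjusted p under 0.05), where 0.248% of all genes were called higher and 1.63% lower. 9 of the 10 NTS differences were below 0, with a median of -0.22, and the median over all genes was -0.21. ifb-2 had the largest, at 4.47 and 4.59 RPKM in WT against 6.79 and 6.13 RPKM in csb-1 (-0.50, SE 0.15, adjusted p = 0.0621, limma).

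**Figure D3:**
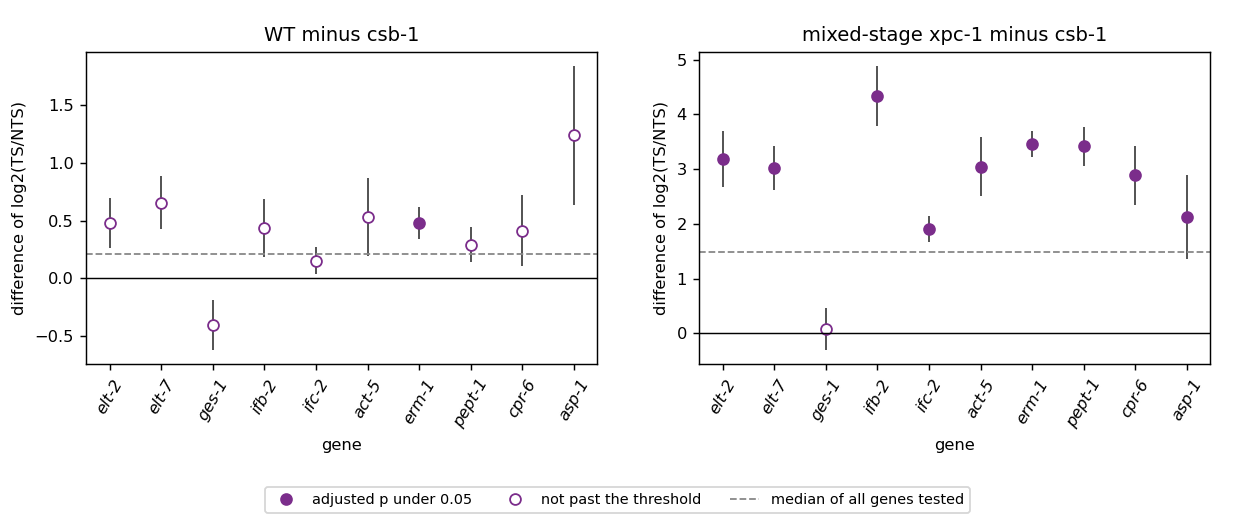
Difference of log2(TS/NTS) between groups (y axis) for each gene, with the limma SE as bars, filled where the adjusted p was under 0.05, and the median of all genes tested as a dashed line. In the left panel erm-1 alone is filled; in the right panel 9 genes are filled, above the dashed line at 1.48, and ges-1 lies at 0.082.

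Without strand preference the ratio of reads should follow the ratio of TT on the strands, so each group was also set against TT content. In WT, 3 of the 10 had a ratio above that of TT (29.8% of all genes tested were higher and 8% lower): elt-7 by 0.52 (adjusted p = 0.0225, limma), act-5 by 1.34 and asp-1 by 1.56 (adjusted p = 0.0105, limma). In csb-1, where TCR is lacking, ges-1 was above its TT ratio by 0.55 (adjusted p = 0.0459, limma). There pept-1 was at -0.42 (adjusted p = 0.0308, limma) and cpr-6 at -0.77 (adjusted p = 0.0493, limma), both below their TT ratios. In csb-1 3.52% of all genes were called higher and 3.18% lower. These csb-1 calls were lost when either csb-1 library was left out. In xpc-1, 9 of the 10 were above their TT ratio, by 1.83 for ifc-2 to 4.16 for ifb-2, where 54.5% of all genes were called higher and 6.74% lower, and ges-1 was at 0.61 (adjusted p = 0.149, limma).

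In mixed-stage xpc-1 the TS to NTS ratio rose above that of csb-1 in 9 of the 10 genes, all but ges-1, with a median difference of 3.03 against 1.48 over the 22189 genes tested in 6 libraries, weighted by their counts. Of all genes 53.4% were called higher and 6.03% lower. All genes here are of every annotated type, with genes overlapped from the opposite strand among them. Set beside the 13710 protein-coding genes without such overlap, the 10 genes did not stand out in xpc-1. Their pooled TS shares were 88.2% and 85.9%, against 87.3% and 86.8%. Beside the genes above, erm-1 rose by 3.45 (SE 0.24, adjusted p = 2.695e-13, limma), pept-1 by 3.42 (SE 0.36, adjusted p = 1.359e-09, limma) and act-5 by 3.04 (SE 0.54, adjusted p = 1.270e-05, limma). cpr-6 rose by 2.89 (SE 0.54, adjusted p = 2.996e-05, limma) and asp-1 by 2.12 (SE 0.77, adjusted p = 0.0179, limma), though asp-1 lost its call in a fit without weights (0.94, adjusted p = 0.548, limma). Against WT, 8 of the 10 were called higher, all but ges-1 (0.40, adjusted p = 0.418, limma) and asp-1 (1.03, adjusted p = 0.287, limma), where 50.5% of all genes were called higher and 5.8% lower. The calls rest on xpc-1 replicate 1. Without it xpc-1 is 1 library, with 16 reads in erm-1 and 12 in pept-1, and the spread comes from WT and csb-1. In that fit 2 of the 10 were called against csb-1, erm-1 (2.07, adjusted p = 0.0299, limma) and pept-1 (3.35, adjusted p = 0.0189, limma), and 0 against WT, where limma called 705 genes higher over the whole genome.

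Along the genes, TS reads in xpc-1 replicate 1 leaned to the 5′ side in 6 of the 10 and to the 3′ side in ifc-2, asp-1, pept-1 and act-5, once divided by the TT on each side of the midpoint, where 72.2% of 7623 genes with at least 20 TS reads leaned to the 5′ side. erm-1 had 465 TS reads on the 5′ side and 229 on the 3′ side (10 and 3 in replicate 2), with 623 and 621 TT. In 4 equal segments from the start it had 88.6, 61.2, 52.3 and 24.3 TS reads per 100 TT. ifc-2 ran the other way. It had 39 TS reads on the 5′ side and 159 on the 3′ side (1 and 10 in replicate 2), and its 4 segments held 1.25, 8.44, 17.6 and 28.0 per 100 TT. Its ratio of the 5′ to the 3′ side per TT was -2.30 on the log2 scale, and 0.459% of the 7623 genes lay below it, where the median was 0.40. Mapping moved with this: from 300 to 1700 bp after its start, a stretch picked after its values were seen, ifc-2 had at most 3 kept reads in any library, and 95.5% of the 24-nt windows there occur more than once in the genome against 1.87% elsewhere in the gene. With that stretch taken out the ratio was -1.90 in xpc-1 replicate 1, and -0.26 and 0.23 in the WT replicates. Of the 7 annotated transcripts of ifc-2, 3 begin 4796 to 4812 bp and 2 begin 9180 and 9196 bp after the first start. In WT replicate 1 the ifc-2 segments held 17.5, 54.5, 54.8 and 52.3 TS reads per 100 TT. The first segment was the lowest there as well. asp-1 had 7 and 25 TS reads on its 5′ and 3′ sides in xpc-1 replicate 1 and 12 and 25 in WT replicate 1. Among genes with a lean to the 5′ side, elt-2 had 47 and 18, elt-7 56 and 28, and ifb-2 97 and 30. These leans were not tested in xpc-1. Between WT and csb-1, limma called 0 of the 10 genes for the ratio of the 5′ to the 3′ side (0 at an unadjusted p under 0.05), where it called 0.0694% of all genes higher and 0.0347% lower.

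**Figure D4:**
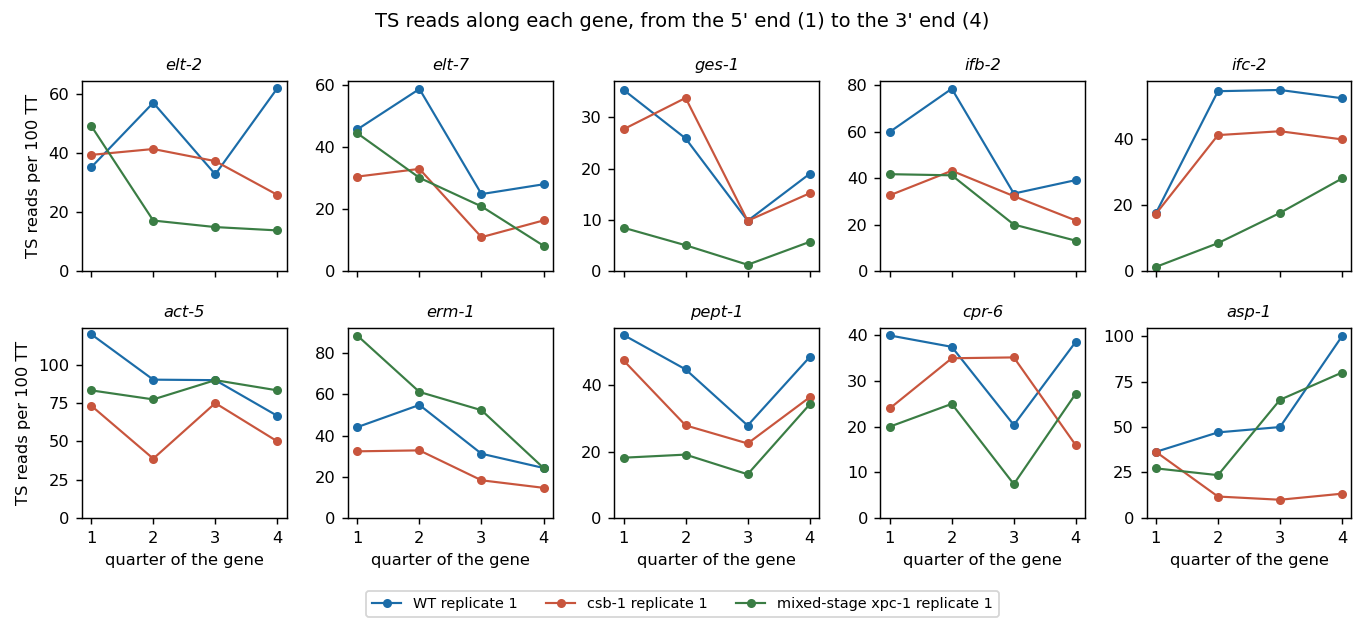
TS reads per 100 TT (y axis, not scaled for depth) in 4 equal segments of each gene from its 5′ end to its 3′ end, for replicate 1 of WT, csb-1 and xpc-1. In xpc-1 the line of erm-1 falls from 88.6 to 24.3 and that of ifc-2 climbs from 1.25 to 28.0.

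Exons and introns both carried a bias to the TS in xpc-1. In xpc-1 replicate 1 the TS share of the 10 genes was 89.7% in exons and 86.8% in introns, on 691 and 783 TS reads. In WT the exon and intron shares were 55.3% and 54.5% in replicate 1 and 50.4% and 52.1% in replicate 2. The TS holds 55.9% of the TT of exons, above both exon shares in WT, and 46.9% of the TT of introns, below both intron shares in WT. In csb-1 the exon shares were 48.4% and 48.2%, also below the TT of exons, and the intron shares 48.0% and 46.5%. Both WT shares thus lay above both csb-1 shares in exons and in introns. ifc-2 had a TS share of 84.1% in exons and 68.9% in introns in xpc-1 replicate 1, and ges-1 62.5% and 51.9%. Reads in the 500 bp before the annotated start were counted on the strand of the TS and then on the other. In xpc-1 replicate 1, erm-1 had 46 and 14, asp-1 20 and 1, and elt-2 17 and 1. pept-1 had 3 and 13 and cpr-6 10 and 17, so the reads before these starts lay more on the strand of the NTS. act-5 had 17 and 19, and elt-7, ges-1, ifb-2 and ifc-2 had at most 4 on either strand. In the csb-1 replicates asp-1 (30 and 11, 40 and 27) and pept-1 (34 and 53, 55 and 72) leaned the same way. erm-1, elt-2 and cpr-6 kept no 1 direction across the csb-1 replicates. The TT content of these 500 bp was not set against the counts.

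Other genes were taken from lists by function. Every library holds all cell types of the worm, so no value of the 10 genes or of these lists is one of gut cells alone. Of 14 listed genes of the apical membrane, junctions and terminal web, limma called 4 higher in WT than in csb-1. Of all genes 13.3% were called higher. The 4 were plst-1, a plastin that bundles actin (1.15, adjusted p = 0.00357, limma), the junction proteins let-413 (0.92, adjusted p = 0.00157, limma) and dlg-1 (0.44, adjusted p = 0.0455, limma), and eps-8, which caps actin in microvilli (0.37, adjusted p = 0.0174, limma). Of the 14 differences 13 were above 0, with a median of 0.23, where 67.9% of all genes were above 0, with a median of 0.21. Of 6 genes of gut specification 1 was called, skn-1, a stress and fate regulator (0.70, adjusted p = 0.00139, limma). Of 14 hydrolases and 14 genes of transport and metabolism limma called 0 (2 and 2 at an unadjusted p under 0.05), with medians of 0.40 and 0.042. Of 10 genes each, limma called 8 of neurons and 5 of body wall muscle, with medians of 0.67 and 0.60, and 0 of hypodermis and 0 of germline (1 and 0 at an unadjusted p under 0.05), with medians of 0.020 and 0.024. The largest in these lists were snb-1, a synaptic vesicle protein (1.56, adjusted p = 0.00327, limma), and unc-54, the major muscle myosin (1.30, adjusted p = 0.00166, limma). Whether lists differ from each other was not tested. In xpc-1 against csb-1, limma called 14 of 14 apical genes, 13 of 14 hydrolases, 11 of 14 transport and metabolism genes and 2 of 5 specification genes higher. It also called 10 of 10 genes of neurons, 10 of 10 of muscle and 9 of 10 of the germline higher, and of the hypodermis 6 higher and 2 lower, where 53.4% of all genes were called higher.

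**Figure D5:**
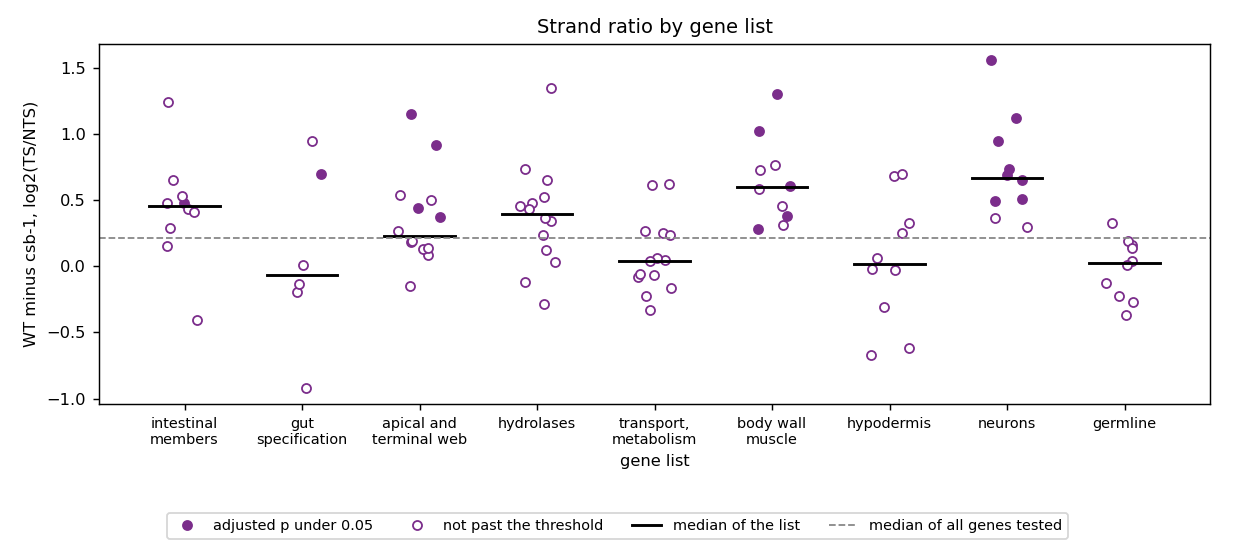
WT minus csb-1 difference of log2(TS/NTS) (y axis) for the genes of each list, filled where the adjusted p was under 0.05, with the median of the list as a black line and that of all genes tested, 0.21, as a dashed line. The lists of neurons and body wall muscle lie wholly above 0, and among the intestinal members erm-1 alone is filled.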

How the data were processed

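Libraries of 4 groups were analysed, WT, csb-1, mixed-stage xpc-1 and WT no UV, with 2 replicates each. Per the submitters' processing notes and the study's methods, the authors trimmed adaptors with cutadapt and aligned reads to ce11, which is WBcel235, with Bowtie 2; versions are not given in the sources used here. The deposited tables hold 1 distinct read of 19 to 24 nt per line with its position and strand, and the deposited score is its mapping quality. The members and the gene lists were chosen with earlier results of these data known. Reads with a score over 20 were kept, counted once and placed by midpoint in genes of Ensembl release 115; reads on the strand opposite to the annotated one were taken as TS. Sequences were read from the RefSeq copy of WBcel235. Tests used limma 3.58.1 (R 4.3.3; eBayes with an intensity trend) on genes whose mean reached 20 reads: WT and csb-1 in an unweighted fit of 4 libraries, and xpc-1 in a fit of 6 libraries weighted by 1/(counting variance + 0.02), since xpc-1 replicate 2 is shallow. TS and NTS levels were logged after scaling to the kept reads of the library, with a pseudocount of 0.5 reads. The fit was also run on simulated counts. Their spread between replicates was set in advance and not estimated from these libraries, so that run gives no error rate for these data. Other tables were made with Python (3.11.15), scipy (1.17.1), pandas (2.3.3) and numpy (2.4.6). All 10 members are named; from every other list at most 4 genes were named, those past the threshold with the largest difference between WT and csb-1, and defining genes near 0. Alternatives changed the pseudocount, the filter, the mapping quality, the counting of positions, the scaling of levels, the weights and the replicate block, dropped genes overlapped from the opposite strand, or left out 1 library.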

Additional observations from a re-analysis of the deposited data

Results flagged for a closer look

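Reads with a mapping quality of 20 or less were left out of the comparisons, and 4 of the 10 genes held more of them in mixed-stage xpc-1 replicate 1 than the 6.80% of that library as a whole. They were 32.9% of the reads of ges-1 (25 reads), 12.4% of those of act-5 (14 reads), 9.43% of those of elt-7 (10 reads) and 9.29% of those of ifc-2 (26 reads). WT no UV, with at most 4 reads of any of these genes, gives no level to set them against, and as whole libraries its replicates held 14.4% and 13.6% of such reads. L1 libraries held them too: in WT replicate 2 they were 14.3% of the reads of act-5, 10.1% of those of ifb-2 and 8.11% of those of elt-7, against 6.92% in that library as a whole, and 7.86% to 9.65% of the reads of ges-1 across the L1 libraries. In xpc-1 replicate 1 the share of act-5 lay inside its range over the L1 libraries, and those of ges-1, elt-7 and ifc-2 lay above theirs. The shares of 24-nt windows found more than once in the genome were 9.35% in ges-1, 4.84% in act-5, 8.40% in elt-7, 8.98% in ifb-2 and 12.2% in ifc-2. Of the 26 reads of ifc-2, 24 lay from 300 to 1700 bp after its start, where 95.5% of the windows occur more than once. ifb-2 had 0.741% of such reads in xpc-1 replicate 1.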

How the results depend on the processing

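Of the single-gene differences, those of ifb-2, asp-1 and ges-1 changed sign under an alternative. ifb-2 in WT against csb-1 ranged from -0.028 without WT replicate 1 to 0.90 without WT replicate 2, and asp-1 in xpc-1 against csb-1 from -0.85 without xpc-1 replicate 1, the other having no read there, to 2.83 without csb-1 replicate 2. ges-1 in xpc-1 against csb-1 was -0.27 with any mapping quality, -0.075 with the replicate block, and -0.064 to 0.40 without 1 library. The members called higher in the WT to csb-1 ratio numbered 0 with a mean of at least 1 read (0 of 37464 genes called), 3 with weights and 0 to 4 without 1 library each, and those called lower 0 to 1. For the TS level 1 was called higher with a pseudocount of 2 and with the replicate block, 0 to 2 without 1 library, and 0 to 1 lower. For the NTS level 1 was called lower with the filter of 1 read, any mapping quality, weights or the replicate block, and 0 to 3 without 1 library. Against TT in WT, 1 was higher with the filter of 1 read and 1 lower with weights; without 1 library 2 to 5 were higher and 0 to 1 lower. Against TT in csb-1, 2 were higher with a pseudocount of 2, each position once, weights or the replicate block, and 0 higher and 0 lower with the filter of 1 read. There, 0 were higher and 1 lower when genes overlapped from the opposite strand were dropped, and 0 to 2 higher and 0 to 3 lower without 1 library. Leaving out 1 library gave 2 to 9 members higher in xpc-1 against csb-1, 0 to 8 against WT and 1 to 9 against TT, the lowest without xpc-1 replicate 1. asp-1 in xpc-1 against csb-1 lost its call without weights (0.94, adjusted p = 0.548, limma) and without csb-1 replicate 1 (1.78, adjusted p = 0.0514, limma). Replicate numbers of WT and csb-1 did not pair (r = -0.0036 across genes between deviations). The causes were not tested. Depth limits xpc-1 replicate 2 and the short genes asp-1 and cpr-6 most.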
